A study of Mus musculus with 20 samples.

Results

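The potassium channel genes are the protein-coding mouse genes whose symbol begins with Kcn followed by a family letter and a number, which gave 93 genes among the 55471 gene IDs of the count tables. Another 5 matching symbols belong to antisense transcripts and were left out. Poly(A) mRNA of brown adipose tissue (BAT), the heat-producing fat of rodents, was counted in 20 libraries of 4 groups, with 5 libraries in each. KO cold libraries came from mice with an adipose-specific CEBPB knockout (KO) after 4 h of cold stress, and KO RT libraries from the same genotype at room temperature (RT). WT cold and WT RT libraries are the wild-type counterparts, in the same order of temperature. The labels name neither the promoter that drives the deletion nor the strain, age or sex of the animals. They do not say whether replicates are separate animals, so p-values measure the spread between these libraries. In bulk tissue, fewer cells of a type and less RNA per cell cannot be told apart.

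Potassium channels let potassium ions leave a cell down their gradient, which pulls the membrane voltage towards its resting value and limits the entry of calcium. Pore subunits open with voltage (Kcna to Kcnd, Kcnq and Kcnh genes), with intracellular calcium or sodium (Kcnm, Kcnn, Kcnt), pass current more easily inwards (Kcnj) or leak at rest (Kcnk). Kcne, Kcnab, Kcnip and Kcnmb genes encode accessory subunits and Kcnf, Kcng, Kcns and Kcnv genes encode subunits that are silent alone and modify other voltage-gated pores. In brown adipocytes, noradrenaline released in the cold acts through cyclic AMP to start lipolysis and heat production. In mouse studies the leak channel encoded by Kcnk3 has been described as a brake on that response.

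Totals per library ran over 27.07 to 55.18 M counts (M, 1e6 counts) on the strand of the transcript. The targeted gene Cebpb had 1.61 to 2.27 CPM (counts per 1e6 counts) in KO cold libraries and 0.208 to 0.856 CPM in KO RT libraries, against 108 to 167 CPM in WT cold libraries and 75.5 to 130.4 CPM in WT RT libraries. The brown fat marker Ucp1 was present in every library, with means of 12980.0 CPM in KO cold and 5967 CPM in KO RT libraries, and 11990.0 CPM in WT cold and 6372 CPM in WT RT libraries. The first principal component of all tested genes (53.9% of the variance) set cold apart from RT libraries, with WT cold replicate 5 and WT RT replicate 4 nearest the middle. Without those 2 libraries, the members called with cold numbered 10 higher and 10 lower in WT, counts not set beside the share of all genes in that fit. Summed skeletal muscle markers moved with temperature: the 18 markers summed to 7.46 to 18.7 in KO cold libraries, 42.9 to 665 in KO RT libraries, 5.99 to 43.2 in WT cold libraries, 11.1 to 1565 in WT RT libraries (CPM). The markers Cacna1s, Ckm and Myh4 were at 0 in all KO cold libraries. Of these 18 markers, 17 fell in the KO cold comparison and 18 in the WT cold comparison. The sums did not overlap between temperatures in KO, so a fit with these markers as a term cannot tell muscle from cold there. The 10 Schwann cell and nerve markers summed to 222 to 348 in KO cold libraries, 172 to 202 in KO RT libraries, 155 to 281 in WT cold libraries, 121 to 171 in WT RT libraries (CPM).

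Most members were at or near the limit of detection. Of the 93 genes, 42 passed the expression filter and were tested, and 51 did not, of which 10 had 0 counts in all libraries. The floor of 3 counts over a group corresponds to 0.0145 CPM in WT cold libraries and up to 0.0197 CPM in KO cold libraries. The highest group mean of an untested member was 0.235 CPM, for Kcna7 in WT RT libraries. The tested genes comprised 11 of 17 voltage-gated pore subunits, 2 of 10 silent modifiers, 3 of 5 KCNQ genes, 3 of 8 EAG, ERG and ELK genes (Kcnh), 5 of 8 calcium- or sodium-activated channels, 5 of 15 inward rectifiers, 6 of 14 two-pore channels and 7 of 16 accessory subunits. Of the 42, 25 reached 1 CPM in at least 1 group and 17 stayed under it. Because a low gene passed the filter only where some libraries held enough counts, the tested genes do not stand for all 93.

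One leak channel made up most of the potassium channel mRNA. Kcnk3 (ENSMUSG00000049265.7, chr5:30588170-30625271, GRCm38), which encodes the two-pore leak channel TASK-1, had 853, 874, 879, 1139 and 1203 CPM in KO cold libraries, against 597, 476, 579, 446 and 531 CPM in KO RT libraries. In wild type it had 851, 849, 722, 930.5 and 822 CPM in WT cold libraries, against 494, 480.2, 406, 466 and 594 CPM in WT RT libraries. Every cold library was above every RT library of its genotype, and by edgeR's quasi-likelihood test Kcnk3 rose in the cold by a log2 change of 0.91 ± 0.11 (adjusted p = 4.95e-07) in KO and 0.77 ± 0.11 (adjusted p = 4.73e-06) in WT, each with its SE. Per kb of exon, the scale used here for comparing genes with one another, Kcnk3 averaged 249 ± 42.1 CPM per kb in KO cold and 132 ± 16.3 in KO RT libraries, and 210.0 ± 18.9 in WT cold and 123 ± 17.1 in WT RT libraries (mean ± SD, n = 5 libraries in each group, as for all such values). Kcnk3 took 88.2 ± 2.04% of the summed CPM per kb of all members in KO cold and 81.4 ± 2.12% in KO RT libraries, and 84.5 ± 3.85% in WT cold and 80.5 ± 1.85% in WT RT libraries. An antisense gene of unknown function, Gm9899, overlaps 229 bases of Kcnk3 exon on the other strand and also rose, to 216 CPM in KO cold libraries against 90.2 CPM in KO RT libraries, and to 169 CPM in WT cold libraries against 84.2 CPM in WT RT libraries. Counts of 1 strand were used, and the part of Gm9899 reads in the Kcnk3 values was not tested.

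After Kcnk3, the order of levels per kb among the abundant members named here, over all libraries, was Kcnj8 (9.12 CPM per kb), Kcna5 (3.77), Kcne4 (3.49), Kcns3 (2.57), Kcnn1 (1.45), Kcna2 (1.18), Kcnj11 (1.08) and Kcnk6 (1.01). Kcnj8 stood apart from its neighbours in the RT groups, at 9.35 ± 0.560 CPM per kb in KO RT and 9.72 ± 1.07 in WT RT libraries. Kcnn1 and Kcna2, and Kcnj11 and Kcnk6 lay within each other's spread in at least 1 group. Without Kcnk3, all other members together summed to 30.5 to 35.2 CPM per kb in KO cold and 28.2 to 30.9 in KO RT libraries, and 28.1 to 49.6 in WT cold and 28.3 to 31.1 in WT RT libraries. The order changed with temperature, since Kcne4 was under 1 CPM per kb in both RT groups.

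**Figure D1:**
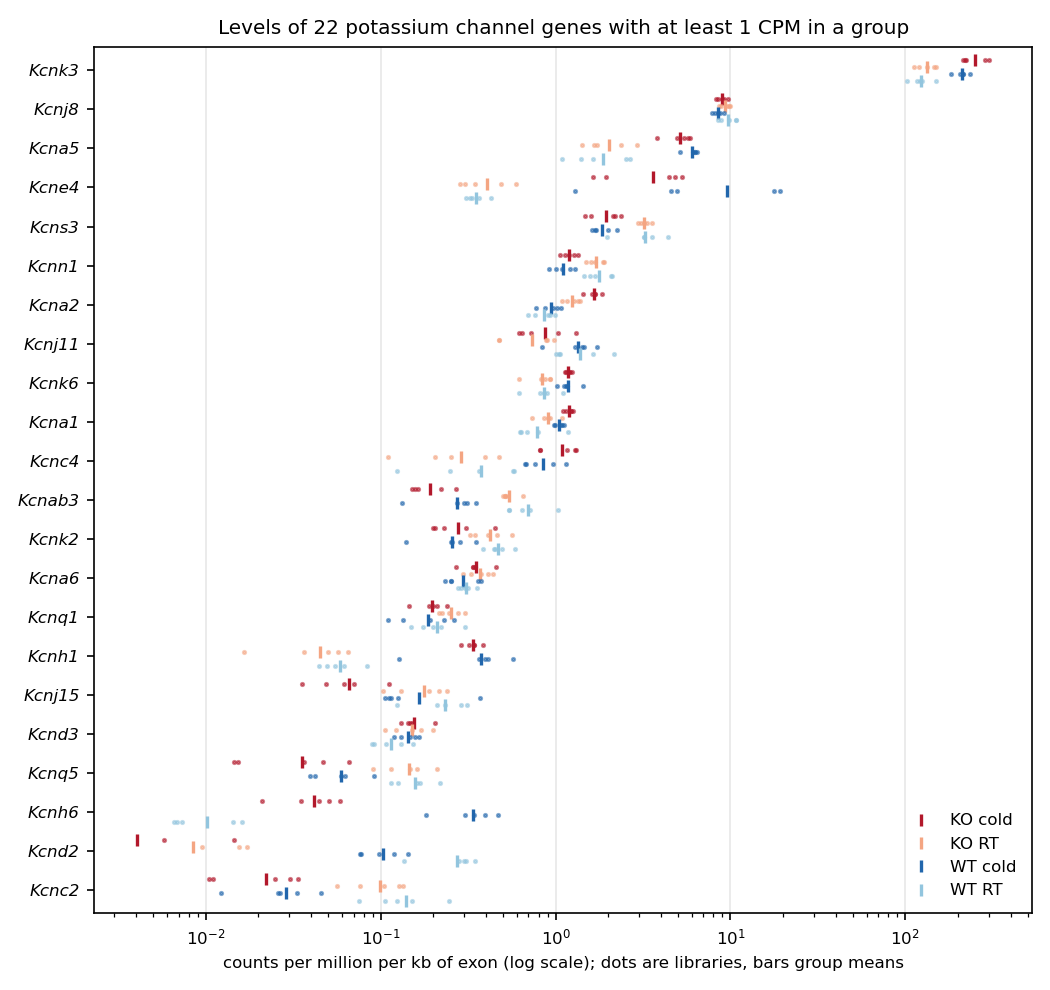
Level of 22 members with at least 1 CPM in a group, as CPM per kb of exon on a log axis. It has a dot for each library above 0 and a bar for each group mean. Kcnk3 lies more than 10 times above every other member in every group, Kcne4 and Kcnh1 separate by temperature, and Kcnd2 separates by genotype.

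The first question was which members changed with 4 h of cold in each genotype. In KO, 22 of 42 tested members passed (adjusted p under 0.05), 11 higher and 11 lower, against 59.2% of all 15233 tested genes (27.5% higher and 31.7% lower). In WT, 22 of 42 passed, also 11 higher and 11 lower, against 56.4% of all genes (26.2% higher and 30.2% lower). Members were therefore called at about the rate of all genes, and the counts say nothing particular about potassium channels. The median log2 change of the members was -0.08 in KO, with all genes at -0.05, and -0.17 in WT, with all genes at -0.05. Placing Kcnh6, which had 0 counts in KO RT libraries, at its lower bound could not move the KO median, since that bound lies far above it. Groups did not overlap for 16 members in KO, where 44.9% of all genes did not overlap, and for 13 members in WT, where the share was 38.2%. The 2 comparisons use different libraries, but the same fit with a shared estimate of the spread gave both. Of the 22 members called in each, 18 were shared and changed in the same direction, 10 higher and 8 lower, and none was called in opposite directions. The fitted change had the same sign in 37 of 42 members. The matching shares over all genes were not set beside these counts, so they say nothing particular about potassium channels.

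**Figure D2:**
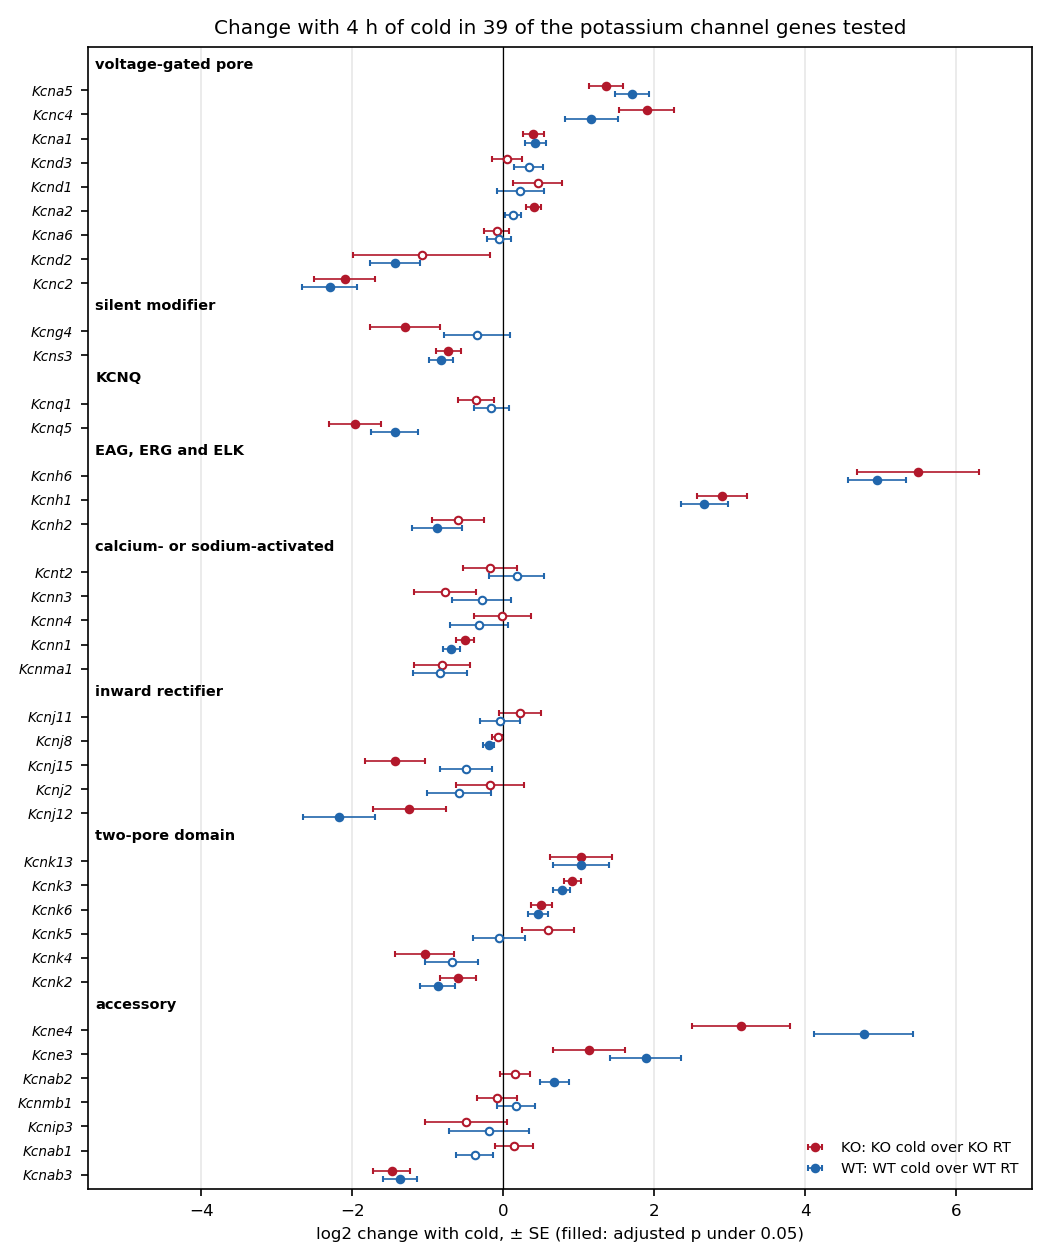
Log2 change with cold of 39 tested members by family, with KO cold over KO RT above WT cold over WT RT in each row, bars of 1 SE and filled points for adjusted p under 0.05. Kcnh6, Kcne4 and Kcnh1 lie farthest to the right in both genotypes, with the KO point of Kcnh6 resting on 0 counts at RT, and Kcnc2 and Kcnq5 are among the lowest in both.

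Among the voltage-gated pore subunits, 6 of 11 tested genes passed in KO (4 higher, 2 lower) and 6 of 11 in WT (3 higher, 3 lower). The shares over all genes were 59.2% in KO and 56.4% in WT. Family counts here and below are read beside these shares and hold too few genes to say anything about a family. Kcna5, which encodes the delayed rectifier Kv1.5 of heart and vascular muscle, had 14.2, 16.4, 16.8, 15.6 and 10.8 CPM in KO cold libraries, against 4.03, 4.74, 8.33, 6.77 and 4.96 CPM in KO RT libraries. In wild type it had 18.4, 18, 18.1, 17.6 and 14.8 CPM in WT cold libraries, against 7.62, 3.11, 7.28, 4.02 and 4.70 CPM in WT RT libraries. The temperatures did not overlap in either genotype, and Kcna5 rose by a log2 change of 1.36 ± 0.22 (adjusted p = 3.23e-05) in KO and 1.70 ± 0.22 (adjusted p = 2.52e-06) in WT. Kcna1 and Kcna6, which encode Kv1.1 and Kv1.6 of nerve, lie beside Kcna5 on chromosome 6 within 105 and 61.9 kb of the next gene. Kcna1 rose by a log2 change of 0.40 ± 0.14 (adjusted p = 0.0196) in KO and 0.42 ± 0.14 (adjusted p = 0.0143) in WT. Kcna6 had a log2 change of -0.08 in KO (adjusted p = 0.685) and -0.06 in WT (adjusted p = 0.788). With the mean of the skeletal muscle markers as a term, the log2 change of Kcna1 was 0.05 in KO (adjusted p = 0.857) and 0.23 in WT (adjusted p = 0.215).

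Kcnc4, which encodes the fast-inactivating channel Kv3.4, had 4.75, 4.82, 4.28, 3.0 and 2.99 CPM in KO cold libraries, against 1.73, 0.401, 0.751, 1.46 and 0.920 CPM in KO RT libraries. In wild type it had 2.5, 4.23, 3.53, 2.45 and 2.81 CPM in WT cold libraries, against 2.10, 1.33, 0.914, 2.12 and 0.455 CPM in WT RT libraries. The cold libraries were above the RT libraries in each genotype, and Kcnc4 rose by a log2 change of 1.90 ± 0.36 (adjusted p = 0.000169) in KO and 1.16 ± 0.35 (adjusted p = 0.00809) in WT. Its close relative Kcnc2, which encodes Kv3.2 of fast-spiking neurons, moved the other way: it had 0.239, 0.0784, 0.0743, 0.216 and 0.178 CPM in KO cold libraries, against 0.904, 0.401, 0.956, 0.546 and 0.742 CPM in KO RT libraries. WT libraries gave 0.0876, 0.190, 0.323, 0.184 and 0.238 CPM in WT cold libraries, against 1.07, 0.537, 0.885, 1.75 and 0.758 CPM in WT RT libraries. Kcnc2 fell by 2.10 ± 0.40 on the log2 scale in KO (adjusted p = 0.000116) and by 2.30 ± 0.36 in WT (adjusted p = 1.37e-05), with no overlap in either genotype. Only the RT groups held enough counts of Kcnc2 for the expression filter. Its p-values and lack of overlap thus rest on a gene tested because it was high at RT.

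Of the silent modifiers, Kcns3, which encodes the subunit Kv9.3, fell in both genotypes, with a log2 change of -0.73 ± 0.16 (adjusted p = 0.000664) in KO and -0.82 ± 0.16 (adjusted p = 0.000184) in WT. It averaged 6.16 ± 1.24 CPM in KO cold and 10.2 ± 0.755 CPM in KO RT libraries. Kcns3 means in WT were 5.85 ± 0.847 CPM in WT cold and 10.3 ± 2.77 CPM in WT RT libraries, and WT RT replicate 4, at 6.22 CPM, lay inside the range of the WT cold libraries. With the muscle marker term, the log2 change of Kcns3 in KO was -0.38 (adjusted p = 0.178). Amigo1, a cell surface protein that binds voltage-gated potassium channels, moved the other way: it averaged 49.8 ± 5.08 CPM in KO cold and 28.4 ± 3.06 CPM in KO RT libraries. Amigo1 means in WT were 51 ± 7.99 CPM in WT cold and 29.2 ± 3.56 CPM in WT RT libraries. Amigo1 rose by a log2 change of 0.81 ± 0.11 (adjusted p = 1.21e-06) in KO and 0.80 ± 0.11 (adjusted p = 1.5e-06) in WT. Kcng4, another silent subunit, passed in KO (log2 change -1.30 ± 0.46, adjusted p = 0.0197) and not in WT (log2 change -0.35 ± 0.43, adjusted p = 0.516), at means under 1 CPM in every group. Its KO call ended in 3 of 10 fits that left out a library.

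Of the KCNQ genes, whose channels carry the slow M-type current of neurons and the slow current of heart, only Kcnq5 passed of 3 tested, in both genotypes. Over all genes, 59.2% passed in KO and 56.4% in WT. Kcnq5 had 0.358, 0.118, 0.112, 0.278 and 0.504 CPM in KO cold libraries, against 1.61, 0.696, 1.13, 0.880 and 1.25 CPM in KO RT libraries. The WT values were 0.482, 0.303, 0.323, 0.704 and 0.453 CPM in WT cold libraries, against 1.25, 1.68, 0.971, 1.29 and 0.884 CPM in WT RT libraries. The temperatures did not overlap in either genotype, and Kcnq5 fell, with a log2 change of -1.96 ± 0.34 (adjusted p = 3.92e-05) in KO and -1.44 ± 0.31 (adjusted p = 0.000441) in WT. Kcnq1 had a log2 change of -0.36 in KO (adjusted p = 0.202) and -0.16 in WT (adjusted p = 0.59).

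The Kcnh genes held some of the steepest rises. Kcnh1 (ENSMUSG00000058248.12, chr1:192190774-192510159, GRCm38) encodes the ether-a-go-go channel EAG1, best known from brain. It had 2.81, 2.51, 2.12, 2.35 and 2.52 CPM in KO cold libraries, against 0.366, 0.268, 0.478, 0.121 and 0.416 CPM in KO RT libraries. The WT values were 3.02, 4.17, 2.67, 2.88 and 0.930 CPM in WT cold libraries, against 0.610, 0.327, 0.400, 0.361 and 0.455 CPM in WT RT libraries. All cold libraries were above all RT libraries, with WT cold replicate 5 the lowest of the cold ones, and Kcnh1 rose by a log2 change of 2.90 ± 0.33 (adjusted p = 1.49e-07) in KO and 2.66 ± 0.31 (adjusted p = 2.43e-07) in WT. Kcnh6 (ENSMUSG00000001901.15, chr11:106008124-106034549, GRCm38) encodes ERG2, a relative of the heart channel hERG. Counts of Kcnh6 were few: KO cold libraries held 23 in all and KO RT libraries 0, while WT cold libraries held 255 and WT RT libraries 7. As CPM, that was 0.179, 0.157, 0.0743, 0.124 and 0.207 in KO cold libraries and 0 in each KO RT library, and 1.40, 1.67, 1.21, 1.07 and 0.644 in WT cold libraries against 0.0244, 0.0234, 0.0571, 0.0258 and 0.0505 in WT RT libraries. Kcnh6 was at least 6.59-fold higher in KO cold than in KO RT libraries, by the lower limit of the exact 95% Poisson interval of the ratio (adjusted p = 1.18e-05). In WT the ratio of cold to RT was 34.7 (interval of the same kind 16.6 to 87.2). Intervals and floors cover counting error only. The fitted log2 change in WT was 4.95 ± 0.38 (adjusted p = 6.97e-09). Only the WT cold group held enough counts for the expression filter. Kcnh6 was thus tested only because it was high there, and its p-values rest on that choice. The genes on either side, Ace and Dcaf7, had log2 changes of 0.12 and 0.12 in KO and 0.04 and 0.11 in WT. Kcnh2, which encodes hERG itself, had means under 1 CPM and log2 changes of -0.60 ± 0.34 (adjusted p = 0.137) in KO and -0.88 ± 0.33 (adjusted p = 0.0259) in WT. Its WT call ended in 4 of 10 fits that left out a library.

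Promoters of some members that rose in both genotypes are shown because cold acts on brown adipocytes through cyclic AMP. Its response element (CRE) and the core of the CRE were looked for, together with a C/EBP and an NR4A motif. The search covered the 250 bases before the RefSeq start (GRCm38.p6), on both strands. The letters were TGACGTCA for the full CRE, TGACG for the CRE core that the full CRE contains, TTGCNNAA for C/EBP and AAAGGTCA for NR4A. Capitals mark a match, and positions count back from the base before the start at -1. GENCODE M21 places the Kcne4 and Kcnc4 matches inside a first exon, so only the match and 10 bases on each side are shown for those genes.
Kcne4, chr1:78816851-78816875, plus strand: ccggaacacgTGACGatgcatttct
Kcnc4, chr3:107458948-107458972, minus strand: ctccccgttcTGACGctgcctcctt
Kcnh1, chr1:192190527-192190773, plus strand: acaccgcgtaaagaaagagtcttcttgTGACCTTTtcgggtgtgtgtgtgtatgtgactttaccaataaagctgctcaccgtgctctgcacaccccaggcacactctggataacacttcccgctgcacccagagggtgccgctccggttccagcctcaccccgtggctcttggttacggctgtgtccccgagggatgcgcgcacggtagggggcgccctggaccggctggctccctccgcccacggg
Kcnh6, chr11:106007898-106008123, plus strand: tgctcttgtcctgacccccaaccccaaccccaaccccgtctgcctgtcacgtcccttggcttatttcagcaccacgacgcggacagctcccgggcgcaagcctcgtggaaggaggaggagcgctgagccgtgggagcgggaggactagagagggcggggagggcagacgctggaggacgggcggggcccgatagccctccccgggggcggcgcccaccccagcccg
The Kcne4 and Kcnc4 lines each hold a CRE core, which begins at -50 and -64. The Kcnh1 line holds the NR4A motif on the other strand, with its first base at -223, and the Kcnh6 line holds none of the 4 motifs. Windows were found for 68 of the 93 members, in 93 windows. The CRE core stood in 14 of the 93 windows (15.1%), against 17.8% of all 32851 windows, the C/EBP motif in 7 (7.53%, against 9.56%), the NR4A motif in 1 (1.08%, against 1.34%) and the full CRE in 0 (against 1.55%). Of the 10 members higher in both genotypes, 7 had a window. Of these, 2 held a CRE core (Kcnc4 and Kcne4), 1 the NR4A motif (Kcnh1) and 0 the C/EBP motif. Every member of that set with a match is thus among the lines shown, and the lines do not stand for the 7. Of the 8 members lower in both, 6 had a window, 1 held a CRE core and 2 held the C/EBP motif. Matching letters describe the sequence and do not show binding.

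Among the accessory subunits, Kcne4 changed most. Kcne4 (ENSMUSG00000047330.8, chr1:78816758-78820028, GRCm38) encodes a small membrane protein that inhibits several voltage-gated channels, KCNQ1 and Kv1.3 among them. It had 5.13, 14, 11.8, 4.33 and 12.8 CPM in KO cold libraries, against 1.59, 0.802, 1.30, 0.759 and 0.920 CPM in KO RT libraries. The WT values were 12.1, 51.3, 47.2, 13.2 and 3.43 CPM in WT cold libraries, against 0.879, 0.818, 0.971, 1.14 and 0.859 CPM in WT RT libraries. No cold library overlapped an RT library of its genotype, but the cold libraries differed widely among themselves, from 4.33 to 14.0 CPM in KO and from 3.43 to 51.3 CPM in WT. Kcne4 rose by a log2 change of 3.15 ± 0.65 (adjusted p = 0.000492) in KO and 4.77 ± 0.66 (adjusted p = 9.77e-06) in WT. Kcne3, a related subunit at under 1 CPM, passed in both genotypes, with a log2 change of 1.14 ± 0.48 (adjusted p = 0.0468) in KO and 1.88 ± 0.48 (adjusted p = 0.00188) in WT. The Kcne3 call in KO ended in 7 of 10 fits that left out a library. Kcnab3, a cytoplasmic beta subunit of Kv1 channels, fell without overlap to 0.551 ± 0.147 CPM in KO cold libraries, against 1.55 ± 0.183 CPM in KO RT libraries (log2 change -1.48 ± 0.25, adjusted p = 2.34e-05), and in WT to 0.781 ± 0.238 CPM in WT cold libraries, against 1.99 ± 0.573 CPM in WT RT libraries (log2 change -1.36 ± 0.23, adjusted p = 2.8e-05). Of the other Kv1 beta genes, Kcnab2 had a log2 change of 0.15 ± 0.20 (adjusted p = 0.517) in KO and 0.68 ± 0.19 (adjusted p = 0.00472) in WT. Kcnab1 had log2 changes of 0.14 in KO and -0.38 in WT, neither past the threshold.

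**Figure D3:**
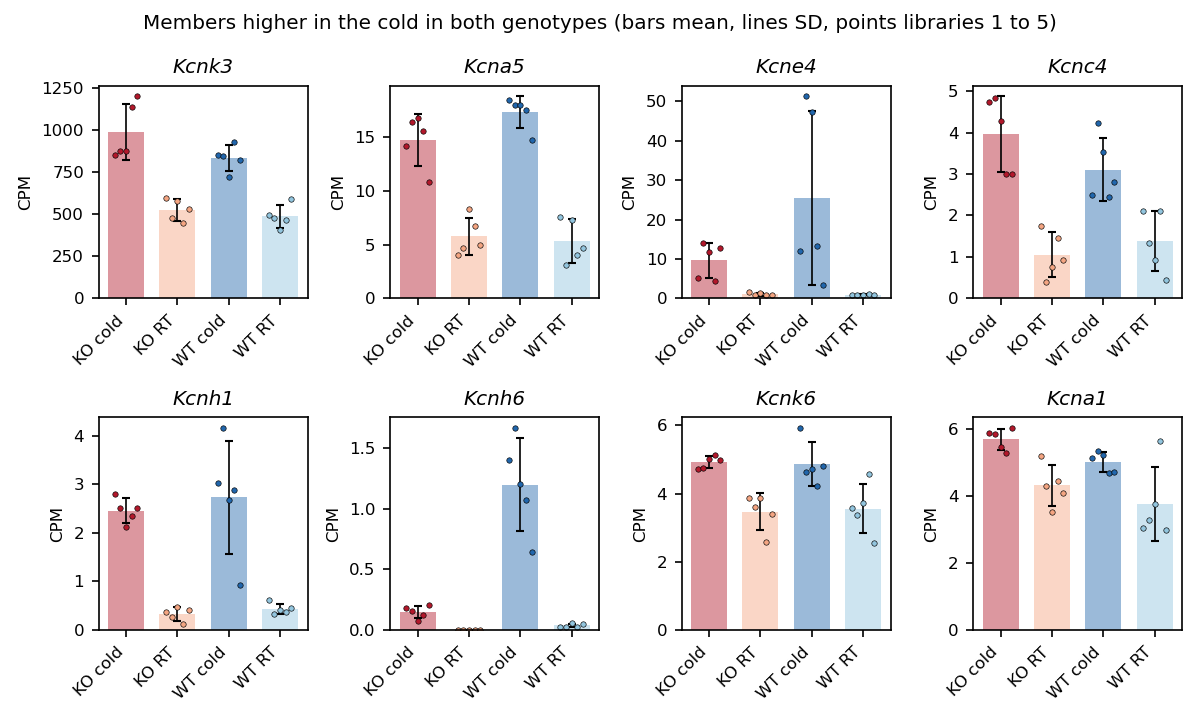
CPM of 8 members that rose in both genotypes, with bars for the group mean, lines for the SD and a point for each of 5 libraries. The cold means stand above the RT means of the same genotype in all 8 panels, Kcne4 has the widest spread among cold libraries, and Kcnh6 reaches above 1 CPM only in WT cold libraries.

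In the two-pore family, 5 of 6 tested genes passed in KO (3 higher, 2 lower), against 59.2% of all genes. In WT, 4 of 6 passed (3 higher, 1 lower), against 56.4% of all genes. Beside Kcnk3, Kcnk6, which encodes TWIK-2 of endosomes and vascular muscle, rose by a log2 change of 0.50 ± 0.14 (adjusted p = 0.00313) in KO and 0.45 ± 0.13 (adjusted p = 0.00631) in WT. It averaged 4.92 ± 0.181 CPM in KO cold and 3.47 ± 0.533 CPM in KO RT libraries. Kcnk6 means in WT were 4.87 ± 0.638 CPM in WT cold and 3.56 ± 0.723 CPM in WT RT libraries, and WT RT replicate 4 overlapped the WT cold libraries. Kcnk13 (THIK-1, a channel of microglia) was under 1 CPM and had a log2 change of 1.03 ± 0.41 (adjusted p = 0.0347) in KO and 1.03 ± 0.37 (adjusted p = 0.0227) in WT. Its calls ended in 4 of 10 (KO) and 3 of 10 (WT) fits that left out a library. Kcnk2, which encodes the stretch- and lipid-sensitive channel TREK-1, fell, with a log2 change of -0.60 ± 0.24 (adjusted p = 0.0346) in KO and -0.87 ± 0.23 (adjusted p = 0.00297) in WT. The Kcnk2 call in KO ended in 7 of 10 fits that left out a library. Kcnk4, which encodes the related channel TRAAK, had a log2 change of -1.04 ± 0.39 (adjusted p = 0.0266) in KO and -0.68 ± 0.35 (adjusted p = 0.105) in WT, and -1.79 in WT when both strands were counted (adjusted p = 6.29e-09). Its KO call ended in 5 of 10 fits that left out a library.

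Of 5 tested genes of the calcium- or sodium-activated family, Kcnn1 alone passed, in both genotypes, against 59.2% of all genes in KO and 56.4% in WT. Kcnn1, which encodes the small-conductance channel SK1, averaged 5.5 ± 0.518 CPM in KO cold and 7.81 ± 0.806 CPM in KO RT libraries. Kcnn1 means in WT were 5.06 ± 0.699 CPM in WT cold and 8.15 ± 1.34 CPM in WT RT libraries. It fell, with a log2 change of -0.50 ± 0.12 (adjusted p = 0.000904) in KO and -0.69 ± 0.12 (adjusted p = 3.23e-05) in WT, without overlap in either. Kcnma1, which encodes the large-conductance BK channel, stayed under 1 CPM and had a log2 change of -0.82 ± 0.37 (adjusted p = 0.0641) in KO and -0.83 ± 0.36 (adjusted p = 0.0517) in WT. Lrrc52, a leucine-rich repeat protein that assembles with BK-type channels, had high values in the cold: it had 34.2, 41.7, 42, 51.5 and 40 CPM in KO cold libraries, against 6.72, 2.30, 6.83, 2.52 and 3.77 CPM in KO RT libraries. WT libraries gave 30.3, 31.4, 27, 40.1 and 23.7 CPM in WT cold libraries, against 3.15, 2.92, 2.0, 4.98 and 2.75 CPM in WT RT libraries. Lrrc52 rose by a log2 change of 3.24 ± 0.28 (adjusted p = 3.12e-08) in KO and 3.27 ± 0.29 (adjusted p = 3.96e-08) in WT, with no overlap. Kcnu1, which encodes the SLO3 channel that LRRC52 accompanies in sperm, was not among the tested genes. Lrrc55, a related BK partner, fell, with a log2 change of -1.17 ± 0.34 (adjusted p = 0.00485) in KO and -1.88 ± 0.35 (adjusted p = 9.47e-05) in WT. With the skeletal muscle marker term its KO change was -0.69 (adjusted p = 0.254).

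No inward rectifier passed as higher with cold, where 27.5% (KO) and 26.2% (WT) of all genes did. Of 5 tested, 2 were lower in KO (Kcnj12 and Kcnj15) and 2 in WT (Kcnj8 and Kcnj12), against 31.7% and 30.2% of all genes. Kcnj8, which encodes the pore Kir6.1 of vascular KATP channels, was the second most abundant member per kb over all libraries. It lay below the mean of Kcne4 in WT cold libraries, but Kcne4 varied widely there and the order was not the same in every library. Kcnj8 averaged 22.7 ± 1.39 CPM in KO cold and 23.8 ± 1.43 CPM in KO RT libraries. Kcnj8 means in WT were 21.6 ± 1.32 CPM in WT cold and 24.8 ± 2.72 CPM in WT RT libraries. Its log2 change was -0.07 ± 0.07 (adjusted p = 0.408) in KO and -0.19 ± 0.07 (adjusted p = 0.0248) in WT, where the call ended in 6 of 10 fits that left out a library. Its partner Abcc9, the sulphonylurea receptor SUR2, averaged 62.1 ± 2.75 CPM in KO cold and 59.8 ± 5.96 CPM in KO RT libraries. Abcc9 means in WT were 66 ± 4.75 CPM in WT cold and 64.1 ± 6.58 CPM in WT RT libraries, and Abcc9 passed in no comparison. Kcnj11, the pore Kir6.2 of pancreatic and muscle KATP channels, averaged 3.18 ± 1.10 CPM in KO cold and 2.71 ± 0.899 CPM in KO RT libraries. Kcnj11 means in WT were 4.94 ± 1.18 CPM in WT cold and 5.08 ± 1.88 CPM in WT RT libraries. Kcnj11 passed in neither cold comparison, and its partner Abcc8 stayed at means of 0.414 to 0.465 CPM. Kcnj12, which encodes Kir2.2 of muscle, had group means under 1 CPM and fell, with a log2 change of -1.25 ± 0.48 (adjusted p = 0.0314) in KO and -2.18 ± 0.48 (adjusted p = 0.000499) in WT. The KO call of Kcnj12 ended in 5 of 10 fits that left out a library. With the skeletal muscle marker term its log2 change turned to 0.51 in KO (adjusted p = 0.428) and was -0.90 in WT (adjusted p = 0.0703).

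**Figure D4:**
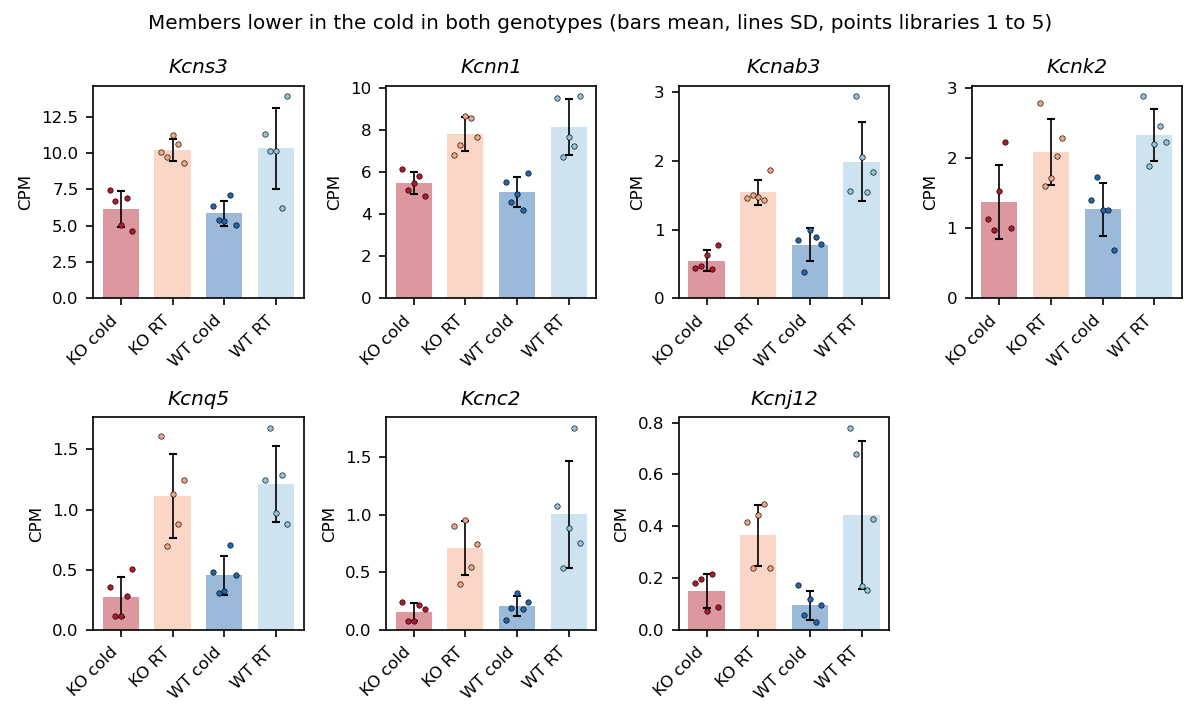
CPM of 7 members that fell in both genotypes, with bars for the group mean, lines for the SD and a point for each of 5 libraries. The cold means stand below the RT means of the same genotype in all 7 panels, and the separation is widest in relative terms for Kcnc2. Kcnc2 was tested only because it was high at RT.

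With the mean of the skeletal muscle markers as a term, the counts of members in KO were 7 higher and 5 lower, not set beside the share of all genes in that fit. The mean log2 CPM of the markers ran from -2.65 to -2.35 in KO cold and from 0.498 to 4.58 in KO RT libraries. The KO groups thus share no marker level, and a KO call that ended or held with the term does not tell muscle from cold. With it 11 KO calls ended. The log2 change of 6 of these moved by less than 1.5 times: Kcna2 was at 0.36 (adjusted p = 0.069), Kcne3 at 1.51 (adjusted p = 0.108), Kcnk13 at 0.69 (adjusted p = 0.383), Kcnk2 at -0.56 (adjusted p = 0.197), Kcnk4 at -0.73 (adjusted p = 0.29) and Kcnk6 at 0.41 (adjusted p = 0.103). For the other 5 it moved further: Kcng4 was at -0.74 (adjusted p = 0.389) and Kcnn1 at -0.33 (adjusted p = 0.118), and the values of Kcna1, Kcnj12 and Kcns3 stand above. In WT, 4 calls ended, those of Kcna1, Kcnh2 (-0.80, adjusted p = 0.113), Kcnj12 and Kcnk13 (0.82, adjusted p = 0.155). Calls held for Kcne4, Kcnh1, Kcnh6, Kcna5, Kcnc4, Kcnk3, Kcnq5, Kcnc2 and Kcnab3 in both genotypes. Of these, Kcnh6 was tested only through WT cold libraries and Kcnc2 only through RT libraries, and their p-values rest on that.

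The second question was which members differed between genotypes at the same temperature. At RT, 2 of 42 tested members passed, Kcna2 higher and Kcnd2 lower in KO, against 2.70% of all genes (1.38% higher and 1.32% lower). Groups did not overlap for 4 members at RT (Kcna2, Kcnd2, Kcnh6 and Kcnj11), against 4.98% of all genes. In the cold, 5 of 42 passed, against 7.70% of all genes (3.51% higher and 4.19% lower): 2 were higher in KO, Kcna2 among them, and 3 lower (Kcnd2, Kcnh6 and Kcnj15). Groups did not overlap for 3 members there (Kcna2, Kcnd2 and Kcnh6), where 7.0% of all genes did not. These comparisons share libraries with the cold comparisons. The summed nerve markers given above overlapped between KO and WT in the cold and, by a small margin, not at RT, and 0 of their 9 tested genes passed in either comparison of genotypes. The mean log2 CPM of the nerve markers overlapped at both temperatures, at 2.17 to 2.52 in KO against 1.99 to 2.30 in WT libraries at RT. Of 12 markers of fibroblasts and adipocyte progenitors, 4 were higher in KO in the cold and 2 at RT. Summed, they did not overlap in the cold, at 1083 to 1225 CPM in KO against 863 to 1007 CPM in WT libraries, and overlapped at RT, at 886 to 1196 CPM in KO against 718 to 951 CPM in WT libraries. Of 14 brown adipocyte markers, 5 were lower in KO in the cold and 2 at RT. Summed, they overlapped in both, at 24732 to 27510 CPM in KO against 25727 to 29904 CPM in WT libraries in the cold. The sum is carried largely by Ucp1. Their mean log2 CPM did not overlap in the cold, at 8.60 to 8.77 in KO against 8.96 to 9.14 in WT libraries, and overlapped at RT. Of 12 markers of smooth muscle and pericytes, 1 was higher and 1 lower in KO in the cold. The part of these lists in the values below was not tested.

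Kcnd2 showed the steepest difference between genotypes. Kcnd2 (ENSMUSG00000060882.5, chr6:21215503-21729805, GRCm38) encodes Kv4.2, which carries the transient A-type current of neurons and heart muscle. It had 0.0298, 0, 0.0743, 0 and 0 CPM in KO cold libraries, against 0.394, 0.398, 0.735, 0.612 and 0.501 CPM in WT cold libraries. At RT it had 0.0488, 0.0803, 0, 0 and 0.0891 CPM in KO libraries, against 1.44, 1.77, 1.54, 0.697 and 1.59 CPM in WT libraries. No KO library reached the lowest WT library at either temperature. In counts, KO cold libraries held 3 in all against 105 in WT cold libraries, a ratio of 0.0389 (exact 95% Poisson interval 0.0079 to 0.117). At RT, KO libraries held 8 against 279 in WT libraries, a ratio of 0.0324 (0.0139 to 0.0648). The fitted log2 change was -4.50 ± 0.61 (adjusted p = 4.1e-05) in the cold and -4.85 ± 0.47 (adjusted p = 1.1e-06) at RT. Only the WT groups held enough counts for the expression filter, so these p-values rest on a gene tested because it was high in WT. With cold, Kcnd2 fell in WT with a log2 change of -1.43 ± 0.33 (adjusted p = 0.000891). In KO it had a log2 change of -1.08 ± 0.91 (adjusted p = 0.321). Its relatives did not pass in either comparison: Kcnd3 had a log2 change of 0.10 in the cold (adjusted p = 0.844) and 0.39 at RT (adjusted p = 0.383), and Kcnd1 had one of 0.20 (adjusted p = 0.802) and -0.04 (adjusted p = 0.984).

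The 250 bases before the RefSeq start of Kcnd2 are shown because C/EBP beta, the deleted factor, binds the motif searched for here.
Kcnd2, chr6:21215096-21215345, plus strand: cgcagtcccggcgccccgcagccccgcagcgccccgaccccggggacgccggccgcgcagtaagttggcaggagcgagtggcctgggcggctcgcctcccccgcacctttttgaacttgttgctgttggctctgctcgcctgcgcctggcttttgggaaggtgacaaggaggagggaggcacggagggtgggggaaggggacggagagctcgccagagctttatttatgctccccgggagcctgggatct
The line holds none of the 4 motifs, and no match says only that these letters are not in this window.

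Kcnh6 was lower in KO in the cold, in a test that it entered only through the WT cold libraries. KO cold libraries held 23 counts against 255 in WT cold libraries, a ratio of 0.123 (0.0765 to 0.189), with a fitted log2 change of -2.97 ± 0.32 (adjusted p = 8.61e-06). At RT, KO libraries held 0 counts and WT libraries 7, and the difference did not pass (adjusted p = 0.0799). Kcnj15, which encodes the inward rectifier Kir4.2, had 0.388, 0.706, 0.223, 0.309 and 0.445 CPM in KO cold libraries against 0.723, 0.664, 0.794, 0.704 and 2.34 CPM in WT cold libraries. WT cold replicate 5 lay far above the other 4 wild-type cold libraries, and the log2 change of -1.34 ± 0.39 (adjusted p = 0.0389) in the cold was -0.80 (adjusted p = 0.172) without it. The call ended in 5 of 10 fits that left out a library, the other 4 being those without KO cold replicate 1, 3, 4 or 5 (adjusted p = 0.0706 to 0.0968). It also ended with no filter (adjusted p = 0.0548), with the skeletal muscle marker term (adjusted p = 0.0501), with the replicate block (adjusted p = 0.0795) and in the fit of only the groups compared (adjusted p = 0.0903). In the cold comparison of KO libraries Kcnj15 fell, with a log2 change of -1.43 ± 0.40 (adjusted p = 0.00381). In WT it had a log2 change of -0.50 ± 0.34 (adjusted p = 0.231), or -1.01 (adjusted p = 0.00502) without WT cold replicate 5.

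Kcna2, which encodes Kv1.2 of axons, was higher in KO at both temperatures. It had 20, 21.8, 19.3, 20.1 and 17 CPM in KO cold libraries, against 12.7, 12.1, 10.4, 11.5 and 9.25 CPM in WT cold libraries. At RT it had 16.5, 15.1, 13.8, 16 and 12.9 CPM in KO libraries, against 8.30, 10.8, 9.14, 11.1 and 11.9 CPM in WT libraries. Every KO library was above every WT library of its temperature, and the log2 change was 0.81 ± 0.10 (adjusted p = 1.67e-05) in the cold and 0.54 ± 0.10 (adjusted p = 0.00456) at RT. Kcna2 also rose with cold in KO (log2 change 0.40 ± 0.10, adjusted p = 0.00189), while WT had a log2 change of 0.13 ± 0.10 (adjusted p = 0.297). The difference between these changes was 0.27 ± 0.15 (adjusted p = 0.558). The members on either side of it on chromosome 3, Kcna3 and Kcna10, were not among the tested genes. Kcnc4, the next member beyond Kcna10, did not differ between genotypes past the threshold, with a log2 change of 0.35 in the cold (adjusted p = 0.64) and -0.39 at RT (adjusted p = 0.735). Kcnj11 had no overlap at RT, with 3.27, 1.74, 1.74, 3.58 and 3.24 CPM in KO libraries against 7.96, 3.88, 3.83, 6.04 and 3.71 CPM in WT libraries, and a change of -0.90 ± 0.27 (adjusted p = 0.095) on the log2 scale that did not pass.

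Kcne4 did not pass in the comparison of genotypes in the cold, with a log2 change of -1.41 ± 0.54 (adjusted p = 0.136) and overlapping groups. This call depended on WT cold replicate 5, the lowest wild-type cold library at 3.43 CPM: without it the log2 change was -1.69 (adjusted p = 0.0258). Kcnk3 had a log2 change of 0.25 ± 0.11 (adjusted p = 0.217) in the cold and 0.11 ± 0.11 (adjusted p = 0.758) at RT, and neither passed.

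The third question was whether the change with cold differed between genotypes. The interaction of genotype and cold was past the threshold in 0 of 42 tested members by edgeR's quasi-likelihood test, against 0.742% of all genes. In the same test 0 members had an unadjusted p under 0.05, against 10.1% of all genes. DESeq2 also called 0 members, and 1 member, Kcne4, had an unadjusted p under 0.05, against 10.4% of all genes. A p that misses the threshold does not show that both genotypes responded alike. Members called in one genotype alone (Kcna2, Kcng4, Kcnj15 and Kcnk4 in KO, and Kcnab2, Kcnd2, Kcnh2 and Kcnj8 in WT) are thus not shown to differ between genotypes.

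**Figure D5:**
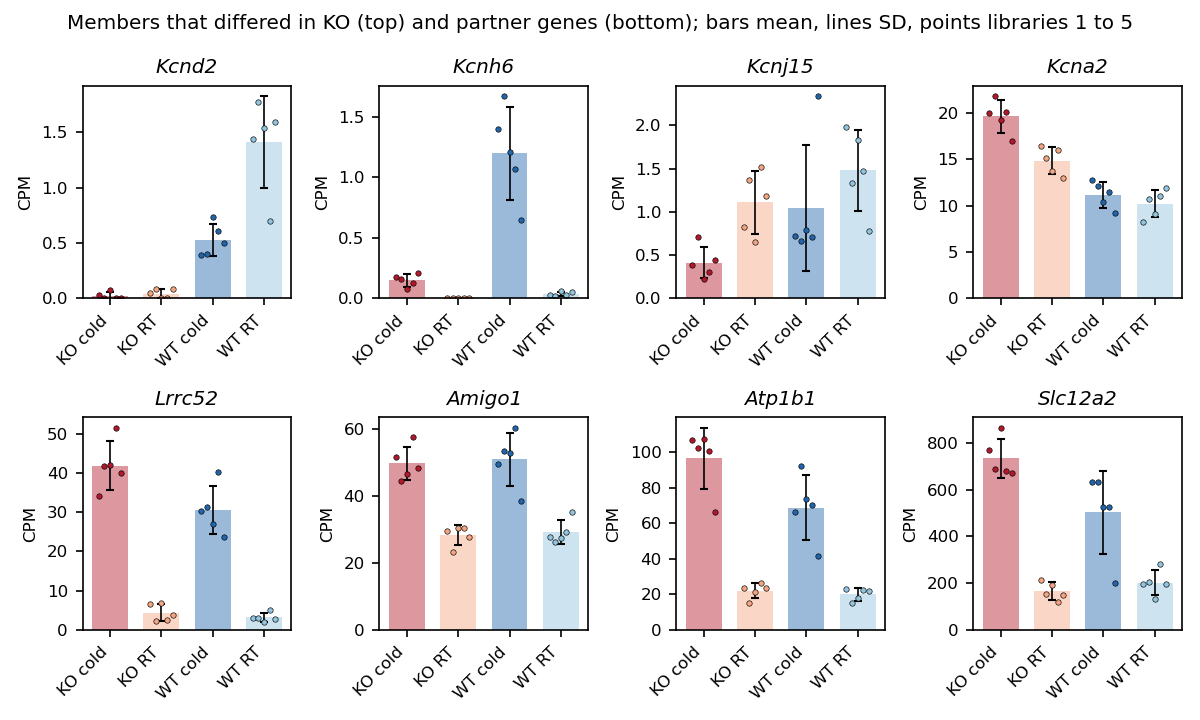
CPM of 4 members that differed between genotypes (top row) and of 4 partner, pump and transporter genes (bottom row), with bars for the group mean, lines for the SD and a point for each of 5 libraries. Kcnd2 is near 0 in both KO groups, Kcna2 is higher in both KO groups, and 1 WT cold library of Kcnj15 lies above the other 4.

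Other genes that set the potassium gradient or meet these channels at the membrane were read from a list of 48 genes, of which 30 were tested. In KO, 7 were higher and 13 lower with cold, against 27.5% and 31.7% of all genes. In WT, 7 were higher and 10 lower with cold, against 26.2% and 30.2% of all genes. Between genotypes, 2 were higher and 1 lower in KO in the cold, against 3.51% and 4.19% of all genes, and 3 were higher in KO at RT, against 1.38% of all genes. The sodium pump, which builds the gradient that potassium channels spend, changed in its subunits in different directions. The beta subunit Atp1b1 rose by a log2 change of 2.13 ± 0.20 (adjusted p = 4.83e-08) in KO and 1.79 ± 0.20 (adjusted p = 4.17e-07) in WT. The regulatory subunit Fxyd5 rose by a log2 change of 0.99 ± 0.14 (adjusted p = 2.22e-06) in KO and 0.93 ± 0.14 (adjusted p = 5e-06) in WT. The subunits with falls in both KO and WT, given as log2 changes in KO and in WT, included Atp1b2 (-0.32 and -0.46), Atp1b3 (-0.15 and -0.15) and Fxyd1 (-0.38 and -0.42). Fxyd6 fell in KO (log2 change -0.86, adjusted p = 0.0193), a call that ended in 3 of 10 fits that left out a library. With the skeletal muscle marker term the KO calls of Fxyd6 (-0.13, adjusted p = 0.821), Atp1b2 (-0.30, adjusted p = 0.0766) and Fxyd1 (-0.31, adjusted p = 0.0874) ended. The Atp1b3 calls rested on small changes and ended in 4 of 10 (WT) and 5 of 10 (KO) fits that left out a library.

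Atp1b3 was higher in KO, by a log2 change of 0.49 ± 0.05 (adjusted p = 6.87e-07) in the cold and 0.49 ± 0.05 (adjusted p = 1.1e-06) at RT.

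Of the cation-chloride cotransporters, Slc12a2 (NKCC1, which brings sodium, potassium and chloride in) rose by a log2 change of 2.15 ± 0.26 (adjusted p = 1.75e-06) in KO and 1.32 ± 0.26 (adjusted p = 0.000269) in WT. WT cold replicate 5, at 199.5 CPM, lay within the WT RT range of 131 to 282 CPM. Slc12a4 (KCC1, which lets potassium and chloride out) rose by a log2 change of 1.12 ± 0.13 (adjusted p = 1.5e-07) in KO and 0.87 ± 0.12 (adjusted p = 3.87e-06) in WT. Slc12a9 fell, with a log2 change of -1.53 ± 0.16 (adjusted p = 6.16e-08) in KO and -1.32 ± 0.16 (adjusted p = 3.17e-07) in WT. Slc12a7 (KCC4) fell in KO with cold (log2 change -0.29 ± 0.09, adjusted p = 0.0087) and was lower in KO than in WT in the cold (log2 change -0.43 ± 0.09, adjusted p = 0.00375). Tmem175, a potassium channel of lysosomes with a symbol outside the Kcn set, fell, with a log2 change of -0.76 ± 0.12 (adjusted p = 8.07e-06) in KO and -0.94 ± 0.12 (adjusted p = 5.01e-07) in WT. Hcn2, a pacemaker channel, passed in WT alone (log2 change -1.0 ± 0.32, adjusted p = 0.0117), and in KO it had a log2 change of -0.33 ± 0.33 (adjusted p = 0.416). Among calcium channel pores, Cacna1a of nerve terminals fell with cold in KO (log2 change -0.55 ± 0.18, adjusted p = 0.0115) and was higher in KO at RT (log2 change 0.66 ± 0.18, adjusted p = 0.0461), a call that ended in 9 of 10 fits that left out a library. With the skeletal muscle marker term both calls of Cacna1a ended (-0.40, adjusted p = 0.218, with cold in KO and 0.64, adjusted p = 0.0661, between genotypes at RT). Cacna1s, the pore of skeletal muscle and itself one of the muscle markers, had 0 CPM in all KO cold libraries against 0.356 to 7.75 CPM in KO RT libraries, and 0 to 0.613 CPM in WT cold libraries against 0 to 19.4 CPM in WT RT libraries. It fell in both genotypes (adjusted p = 0.0134 in KO and 0.0181 in WT). Cacna1s passed the expression filter only through RT libraries, where it was high, and its p-values rest on that choice. Without WT RT replicate 1 the WT log2 change was -3.40 (adjusted p = 0.069).

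The members that passed in no comparison numbered 15 of the 42 tested. They included Kcna6 and Kcnd3, which had at least 1 CPM in every group, and the calcium-activated genes Kcnma1, Kcnn3 and Kcnn4 at under 1 CPM.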

How the data were processed

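RNA of brown adipose tissue was sequenced in 20 libraries of 4 groups (5 each), from a stranded mRNA kit per the labels' protocols. The tools were Trim Galore 0.6.0 and STAR 2.7.8a on GRCm38 (mm10), per the submitters' processing notes. The annotation release is not given in the sources used here, and members were placed with GENCODE M21. The deposited values are whole-number counts per gene, made by the authors, with columns for either strand and for both. The column of the transcript strand was used, which held 94.5% to 95.7% of stranded counts. Rows that name no gene were left out: as a share of reads, unmapped reads took 3.86% to 5.66%, multimapping reads 18.3% to 21.4%, reads on no feature 3.14% to 4.55% and ambiguous reads 1.02% to 1.16%. Reads shared by near-identical genes are therefore not in the counts.

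The counts were fitted with edgeR 4.0.16 in R 4.3.3 (limma 3.58.1): TMM normalization, its expression filter (at least 10 counts, 15 in all), robust quasi-likelihood fit of all 4 groups with no covariate and 16 residual degrees of freedom, and Benjamini-Hochberg adjustment over 15233 genes at a threshold of 0.05. The common biological coefficient of variation was 15.3%. Errors of log2 changes are SEs. CPM are counts per 1e6 on TMM-scaled library sizes, and CPM per kb divide by the union of exons. Totals of 27.07 to 55.18 M counts per library put 3 counts over a group at 0.0145 to 0.0197 CPM. Low sums are compared by exact Poisson intervals at 95%. The fit was also run on simulated counts in which few genes changed, so that run does not cover changes as broad as those with cold.

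Members named are those past the threshold with the steepest changes and at least 1 CPM, those not overlapping between genotypes, and the 10 with the highest level per kb; Kcne3, Kcng4, Kcnh2, Kcnj12, Kcnk4, Kcnk13, Kcnma1 and relatives of named members were added after their values were seen. The members, gene lists and tests were chosen with earlier results of these data known. The alternatives tried were another normalization, no filter, DESeq2 1.42.0, the replicate number as a block, both strands together, single libraries left out, a fit restricted to the 2 groups, the skeletal muscle markers as a term, both intermediate libraries left out and a 2-fold minimum. Counts over all genes under each were added after seeing the data. Replicates differed beyond sampling noise. Some members and partner genes are included in counts and not reported by name here. Sequences are from RefSeq (GRCm38.p6).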

Additional observations from a re-analysis of the deposited data

Results flagged for a closer look

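Among 144 sets of 5 libraries (the 4 groups of each named member and each partner gene past the threshold, without those not reported by name), 9 held 1 library whose gap to the nearest other exceeded Dixon's 95% critical value, where chance gives about 1 in 20. Of these, 3 concern members. Kcna5 was at 14.8 CPM in WT cold replicate 5, below the other 4 at 17.6 to 18.4 CPM. Kcnj15 was at 2.34 CPM in the same library, above the others at 0.664 to 0.794 CPM. Kcnab3 was at 1.87 CPM in KO RT replicate 5, above the others at 1.43 to 1.5 CPM.

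Among partner genes, WT cold replicate 5 also stood apart for Slc12a2 (200 CPM, with the others at 524 to 634 CPM) and Slc12a9 (3.94 CPM, with the others at 2.01 to 2.41 CPM). Atp1b1 was at 66.4 CPM in KO cold replicate 5, below the others at 100 to 107 CPM. Cacna1s was at 0.613 CPM in WT cold replicate 1, with the others at 0 to 0.147 CPM. Slc12a4 was at 16.2 CPM in WT RT replicate 4, above the others at 10.9 to 11.5 CPM, and Cacna1a was at 4.8 CPM in WT RT replicate 3, below the others at 6.87 to 7.35 CPM. In 5 of the 9, the library is one of the pair nearest the middle of the first principal component, and the part of that position in these values was not tested.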

How the results depend on the processing

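Counts of members kept within 1.5 times their main value under the alternatives run, except as follows. With a 2-fold minimum, 7 members were higher and 8 lower in KO with cold, 7 higher and 5 lower in WT with cold, 0 higher in KO at RT and 1 higher in KO in the cold. With the skeletal muscle markers as a term, 7 were higher and 5 lower in KO with cold, where the markers did not overlap between temperatures. DESeq2 called 2 lower in KO at RT. The count higher in KO in the cold was 1 under the other normalization, no filter, both strands, the muscle term, both intermediate libraries left out and the fit of only the groups compared. Leaving out 1 library gave 9 to 12 higher and 8 to 11 lower members in KO with cold, 10 to 12 and 9 to 12 in WT with cold, 1 and 1 in KO at RT, 1 to 2 and 2 to 3 in KO in the cold, and 0 and 0 for the interaction. These counts are not set beside shares of all genes under the same settings. They describe only how the calls moved and say nothing particular about the members.

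Several log2 changes turned sign; the cause was not tested. With the muscle term these were Kcnj12 in KO with cold (0.51), and Kcng4 (0.0862) and Cacna1s (0.48) in WT with cold. Cacna1s is itself one of the markers averaged in the term, so its sign there says nothing about cold. With 1 library left out, Kcng4 in WT ran from -0.54 to 0.19 (without WT RT replicate 2). The interaction of Kcnh6 was -1.56 with both strands and -0.26 by DESeq2, and that of Kcnd2 ran from -0.69 (without KO cold replicate 3) to 0.69 with 1 library left out. Without KO cold replicate 3, Kcnd2 had -2.09 with cold in KO and -5.54 between genotypes in the cold.

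The labels do not say whether replicate numbers pair the samples. Correlations of deviations between libraries of the same number ran from -0.184 to 0.274. The highest were those of KO cold with WT cold for replicates 4 (0.226) and 5 (0.274), where the best match had the same number. Such correlations cannot show that samples were unpaired. With the replicate block, Kcnj15 in KO in the cold was -1.30 (adjusted p = 0.0795), and no other call of a gene named here ended. Over all genes, counts called moved beyond 1.5 times in KO at RT (411 as reported, 629 by DESeq2, 269 without KO RT replicate 4 and 267 without WT RT replicate 5) and for the interaction (113 as reported, 74 with both intermediate libraries left out, 269 by DESeq2). Depth limits the 17 tested members under 1 CPM and the 51 untested ones.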
